A study of Mus musculus with 4 samples.

Results

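The cytosolic ribosomal proteins are the proteins that, with ribosomal RNA, build the small and large subunits of the ribosome outside the mitochondria. They were followed here in mouse blood stem and progenitor cells. The members were all array probe sets, which are groups of short probes, that the platform annotation assigned to exactly 1 gene. Its symbol had to begin with Rpl or Rps and go on with a number, p0, p1, p2 or a. Symbols of S6 kinases, pseudogene symbols ending in -ps and Rps19bp1 were left out. This rule found 105 probe sets for 49 genes, of 45037 probe sets and 18193 named genes that were not controls. Of the genes, 26 with 48 probe sets encode large subunit proteins and 23 with 57 probe sets encode small subunit proteins. By their suffix, _x_at, _s_at or _a_at, 71 of the 105 probe sets can match several transcripts.

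The 4 samples were 2 of CD34(-)KSL hematopoietic stem cells (HSC) and 2 of CD34(+)KSL multipotent progenitors (MPP), both sorted from mice of the C57BL/6 background. KSL cells carry Kit and Sca-1 and lack the markers of mature lineages, and the stem cells among them carry little CD34. No treatment is named, and the age and sex of the mice are not given in the sources used here. RNA equivalent to 3000 cells was amplified in 2 cycles and hybridised to 1 Affymetrix Mouse Genome 430 2.0 array per sample. The samples are called biological replicates without a word on separate animals, so p-values measure only the spread between these samples, which may be technical.

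Each ribosome holds 1 copy of nearly every ribosomal protein, and cells make the proteins in matched amounts. The messenger RNAs are abundant, and most begin with a run of pyrimidines directly at the cap, the TOP motif, through which nutrient and growth signals set their translation. Blood formation is sensitive to ribosomal protein dose: loss of 1 copy of several of these genes causes Diamond-Blackfan anaemia, in which red cell precursors fail, and free Rpl5 and Rpl11 bind Mdm2 and stabilise p53.

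Start sites from RefSeq (mouse assembly GRCm38.p6) were at hand for 43 of the 49 genes, with 51 start sites in all. The 30 bases around the start are shown for some of the genes that the results turn on and for several bright members. The windows hold 15 bases before and 15 after the start, on the strand of the gene. The longest run of C and T near the start is in capitals as far as it lies in the 30 bases. These windows show the pyrimidine run and how its length differs among genes, but the choice leans towards long runs. Among genes not shown, the longest run was 9 and 5 letters at start sites of Rps27l, 5 at Rps3a1 and 7 at Rpsa.
Rps10, chr17:27635230-27635259, minus strand: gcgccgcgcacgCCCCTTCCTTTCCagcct
Rpl27a, chr7:109519180-109519209, plus strand: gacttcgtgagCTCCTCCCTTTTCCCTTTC
Rpl37, chr15:5116598-5116627, plus strand: agTTTCCTgggcggaagcttatccacagga
Rpl7a, chr2:26910792-26910821, plus strand: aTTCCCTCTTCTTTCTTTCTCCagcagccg
Rpl35, chr2:39005117-39005146, minus strand: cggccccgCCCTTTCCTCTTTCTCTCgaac
Rps18, chr17:33955651-33955680, minus strand: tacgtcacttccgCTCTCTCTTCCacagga
Rplp2, chr7:141447636-141447665, plus strand: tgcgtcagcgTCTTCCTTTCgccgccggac
Rpl38, chr11:114668565-114668594, plus strand: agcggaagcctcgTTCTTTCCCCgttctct
Rps6, chr4:86857353-86857382, minus strand: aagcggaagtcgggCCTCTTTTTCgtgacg
Rpl22l1, chr3:28805493-28805522, plus strand: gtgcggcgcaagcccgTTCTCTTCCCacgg

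The run was 13 letters long at Rps10, 20 at Rpl27a, where it goes on past the window, 21 at Rpl7a, 18 at Rpl35 and 11 at Rps18. It was 10 letters at each of Rplp2, Rpl38, Rps6 and Rpl22l1, and 6 at Rpl37. A run of 8 or more letters of C and T that touched the 20 bases on either side of the start was present at 24 of the 51 start sites (47.1%) and at 21.2% of 32851 start sites of all genes. A run of 10 or more was present at 17 (33.3%), and at 10.7% of all.

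The second set shows 250 bases upstream of the start of the 2 genes with called probe sets of their own, with the letters CCGGAAG, or CTTCCGG on the other strand, in capitals. These letters are the core bound by ETS family factors.
Rps10, chr17:27635245-27635494, minus strand: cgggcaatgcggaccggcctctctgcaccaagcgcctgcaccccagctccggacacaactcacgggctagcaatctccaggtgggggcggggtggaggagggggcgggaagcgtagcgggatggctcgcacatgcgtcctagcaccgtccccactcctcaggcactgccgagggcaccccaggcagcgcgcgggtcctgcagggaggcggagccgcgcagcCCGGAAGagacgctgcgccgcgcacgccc
Rpl27a, chr7:109518945-109519194, plus strand: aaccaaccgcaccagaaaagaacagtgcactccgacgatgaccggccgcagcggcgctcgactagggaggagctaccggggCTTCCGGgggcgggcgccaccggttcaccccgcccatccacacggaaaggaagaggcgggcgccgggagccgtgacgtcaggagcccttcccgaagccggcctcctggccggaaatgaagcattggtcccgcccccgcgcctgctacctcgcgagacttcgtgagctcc

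Both hold the letters once. In windows from 250 bases before to 50 after the start, searched on both strands, CCGGAAG was found at 21 of the 51 start sites of the members (41.2%) and at 8.86% of all. AAGATGG, the core read by YY1, was found at 15.7% and 6.34%. GGGCGG, read by SP1, was found at 52.9% and 35.7%. TATAAA was found at 11.8% and 13.6%, and the E-box CACGTG at 9.80% and 7.15%. For some of the genes with several start sites the windows overlap, and a match describes letters only.

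The deposited values are intensities on a linear scale, in arbitrary units and scaled to a common level on each array. They depend on how well each probe binds, so the level of one probe set was never set against that of another as an amount of RNA. Of the 105 probe sets, 92 lay above the highest of 27 bacterial control probe sets on all 4 arrays, and 3 lay above it on none. That control level was 16.9 and 16.7 units on HSC replicates 1 and 2, and 14.9 and 13.6 units on MPP replicates 1 and 2. The member probe sets held 6.65% and 7.57% of the summed signal of HSC replicates 1 and 2, and 6.35% and 5.90% of that of MPP replicates 1 and 2. The share in HSC replicate 1 was closer to MPP replicate 1 than to HSC replicate 2.

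The arrays matched their labels. Of 9 stem cell markers, 8 passed the test as higher in HSC, and the other, Hlf, stood 0.70 higher on the log2 scale (limma adjusted p = 0.0518). The progenitor markers Cd34, Flt3 and Cd48 were all lower in HSC. Of the sort markers that both groups share, Kit was 0.65 higher in HSC (limma adjusted p = 0.0328). With equal array medians its difference was 0.41 and did not pass. Ly6a, the gene of Sca-1, had no probe set of its own. Of 17 markers of mature B, T, myeloid and late erythroid cells with a probe set, 8 were above the control level on no array (Cd3d, Cd3e, Cd3g, Cd79a, Itgam, Camp, Alas2 and Slc4a1), 6 on 2 arrays and 3 on all 4. These 3 were Cd79b, at 117 to 152 units, Cd8a, at no more than 46.2 units, and the monocyte receptor Csf1r, which was lower in HSC. Of 4 megakaryocyte markers tested, Pf4 and Gp9 were higher in HSC, and the summed intensity of the 4 was 1020 and 766 units on the HSC arrays and 510 and 347 units on the MPP arrays. The part of these markers in the results on ribosomal proteins was not tested. HSC replicate 2 stood apart in some RNA measures. Its actin signal was 9.42 times as high at the 3' end as at the 5' end, against 4.99 to 5.26 on the other arrays. For Gapdh that ratio was 5.81, against 4.88 to 5.15. Its 18S ribosomal RNA signal at the 5' probe set was 10696 units, against 3382 to 5139. At the 3' probe set of 18S it was 1225 units, within the 922 to 1506 units of the other arrays.

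Few ribosomal protein probe sets differed between HSC and MPP, and the usual difference was smaller than the gap between the 2 HSC arrays. Differences are HSC minus MPP on the log2(intensity + 6.01) scale, tested with limma across all 27022 probe sets that passed a filter on low levels. Of the members, 97 probe sets of 47 genes passed that filter. At an adjusted p under 0.05, 3 probe sets were higher in HSC and 0 lower, which is 3.09% of the members beside 10.6% of all probe sets tested. Calls over all probe sets were 5.96% higher and 4.65% lower. At an unadjusted p under 0.05, 13 members were higher (13.4%) and 5 lower (5.15%), beside 14.4% and 9.93% of all probe sets. With each gene represented by its probe set of highest mean, 1 gene was higher, Rpl27a, and 0 lower in limma, which is 2.13% of the 47 beside 13.6% of 12382 genes (7.71% higher, 5.9% lower). At an unadjusted p under 0.05, 6 genes were higher (12.8%) and 2 lower (4.26%), beside 16.9% and 11.8% of all genes.

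The values nevertheless lay mostly on one side. The median difference of the 47 genes was 0.19, and 42 of them (89.4%) were above 0, with values from -0.51 at Rps27l to 1.08 at Rpl39l. Over all 12382 genes the median was 0.10 and 57.7% were above 0. Both HSC arrays exceeded both MPP arrays in 26 of the 47 genes (55.3%), beside 35.3% of all genes, and both lay below in 2 (4.26%), beside 23.4%. By probe set, 48 of 97 (49.5%) had both HSC arrays above, beside 33.3% of all probe sets, and 8 (8.25%) below, beside 21.3%. The 70 tested member probe sets that can match several transcripts had a median of 0.23, and the other 27 had a median of 0.12. Among the 74 member probe sets in the highest 10% by mean level the median was 0.23. The 2546 other probe sets in that range that name no ribosomal protein had a median of -0.13, but most of them were dimmer than most members. Above a mean of 5000 units, a limit chosen after the values were seen, the median was 0.26 for 48 member probe sets and 0.09 for 60 probe sets that name no ribosomal protein, 34 of them above 0. Between the HSC arrays, replicate 2 minus replicate 1, these sets had medians of 0.27 and 0.18.

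This one-sidedness was as large between replicates as between cell types. HSC replicate 2 was the highest of the 4 arrays in 40 of the 47 genes (85.1%), beside 31.7% of all genes, and MPP replicate 2 was the lowest in 34 (72.3%), beside 28.6%. The median of HSC replicate 2 minus HSC replicate 1 was 0.27, with 43 genes (91.5%) above 0, beside -0.0045 and 49.6% over all genes. The median of MPP replicate 1 minus HSC replicate 1 was -0.02, so those arrays of different cell types lay closer than the HSC pair. The median of MPP replicate 2 minus MPP replicate 1 was -0.13, and that of MPP replicate 2 minus HSC replicate 1 was -0.15. The part of the higher actin 3'/5' ratio and 5' 18S signal of HSC replicate 2 in this was not tested.

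**Figure D1:**
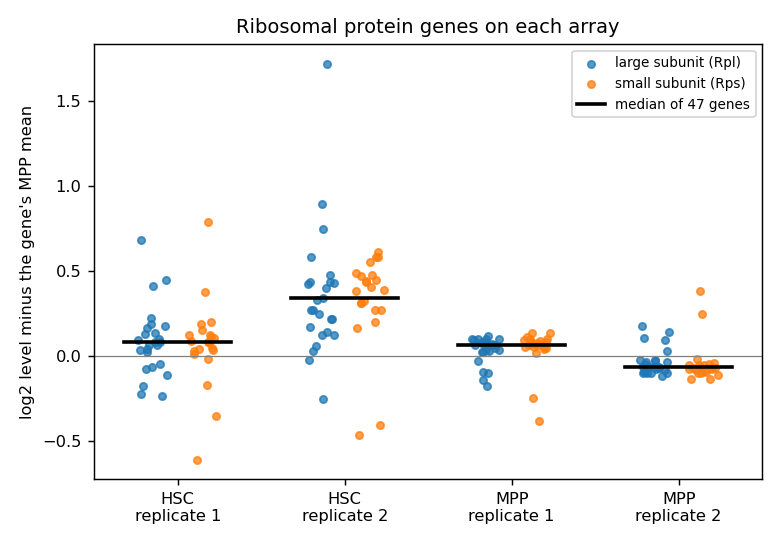
Intensity of the representative probe set of each of the 47 tested ribosomal protein genes on each of the 4 arrays, on the log2 scale minus the gene's mean over the MPP arrays, with large and small subunit genes in different colours and a bar at the median of the 47. HSC replicate 2 is the highest array in 40 genes and MPP replicate 2 the lowest in 34.

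The shift also moved with how the arrays were scaled. With the arrays made equal in their median, the median of the members was -0.04, 0 genes were called higher and 2 were called lower, Rps25 and Rps27l, beside 15.9% of all genes called, while the median of all genes moved from 0.10 to -0.14. Over all genes the calls then were 620 higher and 1345 lower, where they had been 955 and 731. Quantile normalization gave a member median of 0.0019 and 2 genes higher (12.3% of all genes called), and cyclic loess gave 0.31 and 18 genes higher (13.1%). Without HSC replicate 1 the median was 0.34 with 21 genes higher (17.7% of all called). Without HSC replicate 2 it was 0.08, with 1 higher and 1 lower (14.5%). Without MPP replicate 1 it was 0.27 (8.26%), and without MPP replicate 2 it was 0.16 (7.7%), with 0 members called either way in limma. Relative to the median of all genes under the same setting, the median of the members was 0.09 as deposited and with equal medians, -0.02 after quantile normalization and 0.28 after cyclic loess. It was 0.23 without HSC replicate 1 and -0.02 without HSC replicate 2, 0.18 without MPP replicate 1 and 0.08 without MPP replicate 2.

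**Figure D2:**
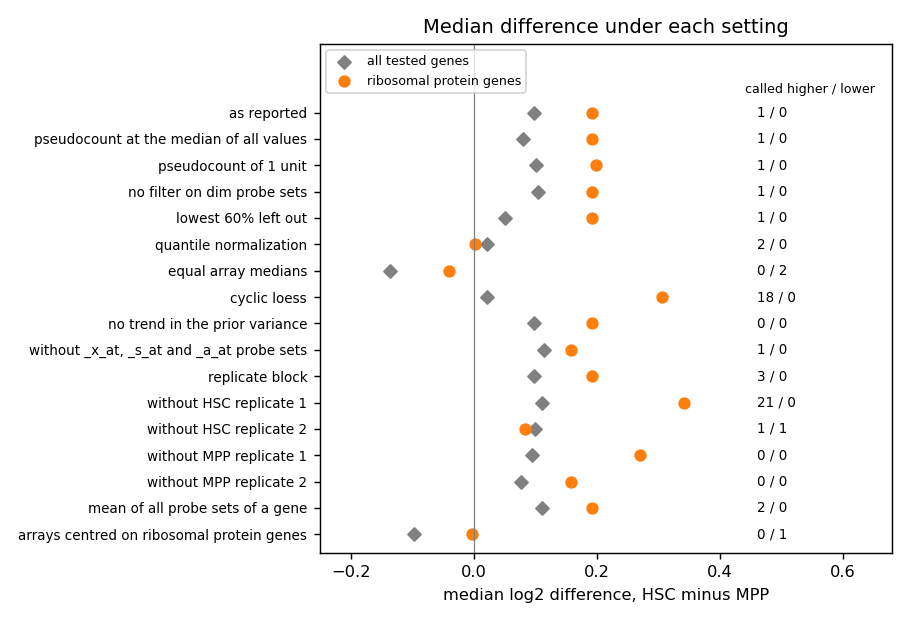
Median log2 difference, HSC minus MPP, of the ribosomal protein genes (circles) and of all tested genes (diamonds) under each processing setting, with the number of ribosomal protein genes called higher and lower at the right. The circles range from -0.04 with equal array medians to 0.34 without HSC replicate 1.

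**Figure D3:**
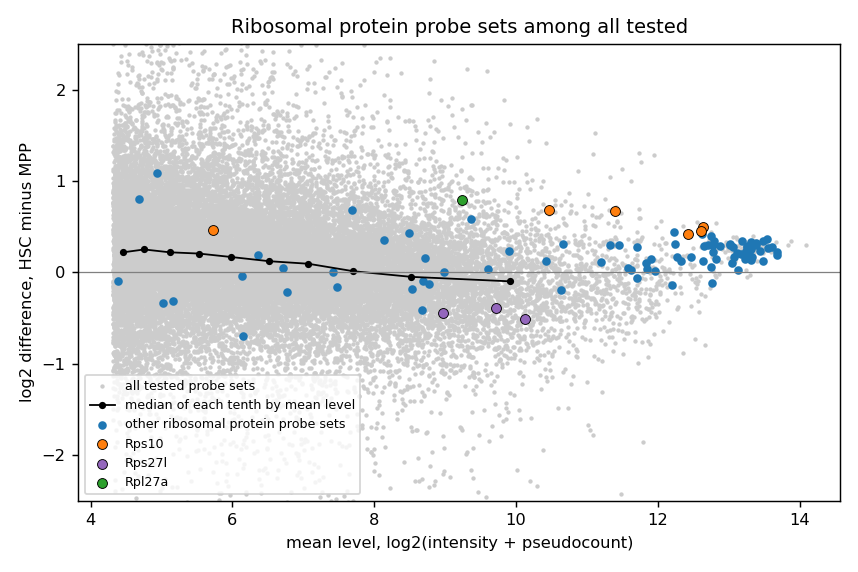
Log2 difference, HSC minus MPP, against mean log2 level for all tested probe sets (grey) and the ribosomal protein probe sets (coloured, with Rps10, Rps27l and Rpl27a picked out); the black line joins the median of each of 10 level classes, and points beyond the axis limits are not drawn. The 74 members in the highest class centre at 0.23 and lie mostly at its bright end, where probe sets that name no ribosomal protein have a median of 0.09 above 5000 units.

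Both subunits showed the same picture. The small subunit genes had a median of 0.23 with 20 of 22 above 0, and the large subunit genes a median of 0.19 with 22 of 25 above 0. The difference between the subunits was not tested.

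Among small subunit proteins, Rps10 was the only one with probe sets that passed the test as deposited, 2 of its 6. Rps10 sits near the messenger RNA entry of the small subunit and is one of the Diamond-Blackfan genes. Its probe set 1416719_a_at read 3328 and 3453 units in HSC and 2193 and 2055 units in MPP. The HSC mean was 3390 ± 87.9 units and the MPP mean 2124 ± 98.1 units (SD, n = 2 each), a difference of 0.67 (SE 0.14, limma adjusted p = 0.0139). The groups did not overlap, and the gap between them was larger than the gap within either.

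The probe set 1439374_x_at read 1680 and 1881 units in HSC and 1155 and 1063 units in MPP, a difference of 0.68 (SE 0.16, limma adjusted p = 0.0189). The brightest probe set of Rps10, 1438723_a_at, read 6957 and 8211 units in HSC and 5565 and 5170 units in MPP, a difference of 0.49 (SE 0.15, adjusted p = 0.0630). In each of the 6 Rps10 probe sets both HSC arrays exceeded both MPP arrays, with differences from 0.42 to 0.68. By their annotation these probe sets target transcripts of 1 gene, and they are not independent. Both called ones have a suffix of probe sets that can match several transcripts. All Rps10 probe sets tested stayed above 0 under 15 of 15 alternatives, from 0.19 to 0.81. Among the alternatives that tested both called probe sets, no Rps10 probe set passed without MPP replicate 1, without MPP replicate 2, with no filter, with equal array medians, with no trend in the prior variance, or with the arrays centred on ribosomal protein genes.

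Rps27l was the member furthest in the other direction. It is a paralog of Rps27 that p53 can induce. Its representative probe set 1450925_a_at read 865 and 998 units in HSC and 1400 and 1253 units in MPP. The HSC mean was 931 ± 93.7 units and the MPP mean 1326 ± 104 units (SD, n = 2 each), and the difference of -0.51 (SE 0.16) missed the threshold (limma adjusted p = 0.0746). The groups did not overlap.

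The other Rps27l probe sets differed by -0.39 and -0.45, and in all 3 both HSC arrays lay below both MPP arrays. Under the 14 alternatives that tested them, all were below 0, from -0.74 to -0.25. The representative passed the test once array medians were made equal (-0.74, limma adjusted p = 0.0116). It also passed with each array centred on its ribosomal protein genes (-0.70, adjusted p = 0.0449). Both settings shift all values of an array together and so lowered every difference, and the second takes that shift from the members themselves. Under the other settings that used every array and tested this probe set, it did not pass. Without HSC replicate 2 the difference was -0.61. Its parent Rps27 read 62.0 and 106 units in HSC and 52.7 and 93.6 units in MPP at its own probe set, where the groups overlapped and the difference was 0.19 (adjusted p = 0.780). A bright probe set that names Rps27 beside other genes, 1415716_a_at, read 8342 and 11358 units in HSC and 7624 and 7230 units in MPP. The groups did not overlap there, and the difference was 0.39 (SE 0.17, adjusted p = 0.188).

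**Figure D4:**
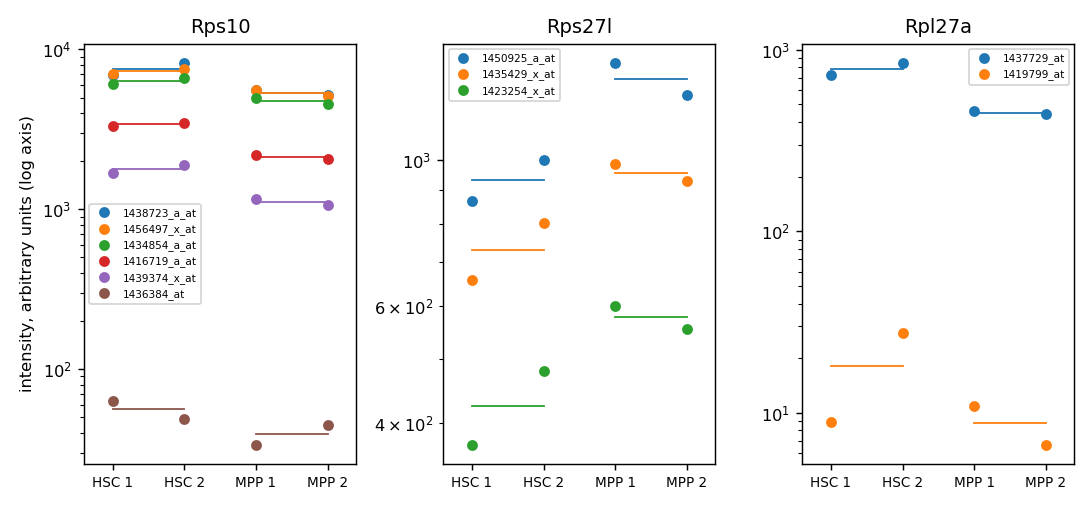
Intensity on each array, on a log scale, of the probe sets of Rps10, Rps27l and Rpl27a, each panel with its own range and a line at each group mean. All 6 Rps10 probe sets are higher in both HSC samples and all 3 Rps27l probe sets lower.

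Rps25, a small subunit protein that some viral and cellular messages need for internal initiation, read 360 and 333 units in HSC and 509 and 420 units in MPP, a difference of -0.41 (SE 0.18, limma adjusted p = 0.201). A bright probe set that names Rps25 beside other genes, 1451068_s_at, read 6981 and 7110 units in HSC and 8109 and 5958 units in MPP, a difference of 0.02. The HSC values lay between the MPP values there. The 2 probe sets therefore gave Rps25 different sizes.

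Rps4l, a paralog of the X-linked Rps4x, read 274 and 237 units in HSC and 131 and 186 units in MPP, a difference of 0.68 (SE 0.23, limma adjusted p = 0.0875). Rps4x itself read 10855 and 13384 units in HSC and 10756 and 9770 units in MPP, a difference of 0.23 (adjusted p = 0.399). Both HSC arrays exceeded both MPP arrays in each, though at Rps4x HSC replicate 1 and MPP replicate 1 nearly coincided.

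The 5 members with the highest mean intensity were all small subunit genes, and none passed the test. Rps3a1 differed by 0.22, Rpsa by 0.19, Rps18 by 0.28, Rps29 by 0.27 and Rps14 by 0.37. Rpsa, also known as the laminin receptor, read 13243 and 14836 units in HSC and 12760 and 11845 units in MPP. Rps14, whose loss marks the anaemia of the 5q- syndrome, read 11681 and 15735 units in HSC and 11529 and 9576 units in MPP. At Rps14 HSC replicate 2 stood well above the other 3 arrays, and at Rpsa it was the highest by a smaller margin.

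Among large subunit proteins, Rpl27a carried the only call of a representative probe set. Rpl27a lies in the large subunit, and a mutation of the mouse gene causes anaemia and ataxia. Its probe set 1437729_at read 728 and 846 units in HSC and 459 and 443 units in MPP. The HSC mean was 787 ± 83.0 units and the MPP mean 451 ± 11.1 units (SD, n = 2 each), a difference of 0.79 (SE 0.17, limma adjusted p = 0.0138).

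That call rested on 1 probe set. It was lost when either MPP array was left out, which leaves no spread to estimate in that group. The size of the difference hardly changed, at 0.82 without MPP replicate 1 and 0.77 without MPP replicate 2. Once array medians were made equal the difference was 0.56 (limma adjusted p = 0.0557). The other Rpl27a probe set, 1419799_at, did not pass the filter. A bright probe set that names Rpl27a beside other genes, 1426661_at, read 8935 and 11922 units in HSC and 9175 and 8720 units in MPP, where the groups overlapped and the difference was 0.21 (adjusted p = 0.491).

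Rpl37, a zinc-binding large subunit protein, read 709 and 895 units in HSC and 470 and 600 units in MPP, a difference of 0.58 (SE 0.19, limma adjusted p = 0.0860). The groups did not overlap. A probe set that names Rpl37 beside other genes, 1453729_a_at, read 3653 and 5086 units in HSC and 2770 and 2562 units in MPP, and its difference of 0.69 (SE 0.18) passed the test (adjusted p = 0.0315). The brightest of this kind, 1434872_x_at, read 5903 and 8828 units in HSC and 6027 and 5733 units in MPP, where the groups overlapped and the difference was 0.30 (adjusted p = 0.376).

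The 3 large subunit genes furthest below 0 were close to it. Rpl14 read 384 and 442 units in HSC and 461 and 439 units in MPP, a difference of -0.12. Rpl8, whose groups also overlapped, differed by -0.11, and Rpl12 by -0.09. Brighter probe sets that name Rpl14 beside other genes differed by 0.14 to 0.31, and those of Rpl12 by 0.12 and 0.44, so the sign depended on the probe set.

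The stalk proteins recruit the GTPases of elongation. Rplp0, the stalk base, read 9445 and 11627 units in HSC and 9391 and 8958 units in MPP, a difference of 0.19 (adjusted p = 0.487). Rplp2 read 10842 and 12932 units in HSC and 9788 and 9404 units in MPP, a difference of 0.30 (adjusted p = 0.247). In neither did the groups overlap, and neither passed limma's test. Rpl11 of the 5S particle, which also binds Mdm2, read 4756 and 6058 units in HSC and 4534 and 4159 units in MPP, a difference of 0.31 (adjusted p = 0.282).

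The paralogs showed no common direction. Of 9 listed, 6 had a probe set of their own and 5 were tested, with a median of 0.02. None was called, beside 13.6% of all genes. Rpl39l, a testis-rich paralog of Rpl39, read 22.6 and 63.3 units in HSC and 13.0 and 17.1 units in MPP, a difference of 1.08 with an SE of 0.48 (adjusted p = 0.191), and its values lay near the control level. Rpl39 at its own probe set differed by 0.05. Rpl22l1 differed by 0.02 and Rpl22, a protein needed for normal T cell development, by 0.10. Rpl7l1 differed by 0.01 and Rpl7 by 0.30. Rpl3l, the muscle paralog of Rpl3, did not pass the filter, with values of 2.90 to 16.7 units.

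Rps16, also left out by the filter, read 0.411 to 9.44 units at its own probe set, below the control level on every array. At 2 bright probe sets that name Rps16 beside other genes it differed by 0.28 and 0.27. In all, 107 probe sets for 40 genes name 1 ribosomal protein gene beside other genes, and 25 of these genes, Rpl5 and Rplp1 among them, have no probe set of their own. Of the 102 tested, 1 was called higher, that of Rpl37, and 0 lower, beside 5.96% and 4.65% of all probe sets. Their median was 0.25, with a range of -0.63 to 0.69.

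**Figure D5:**
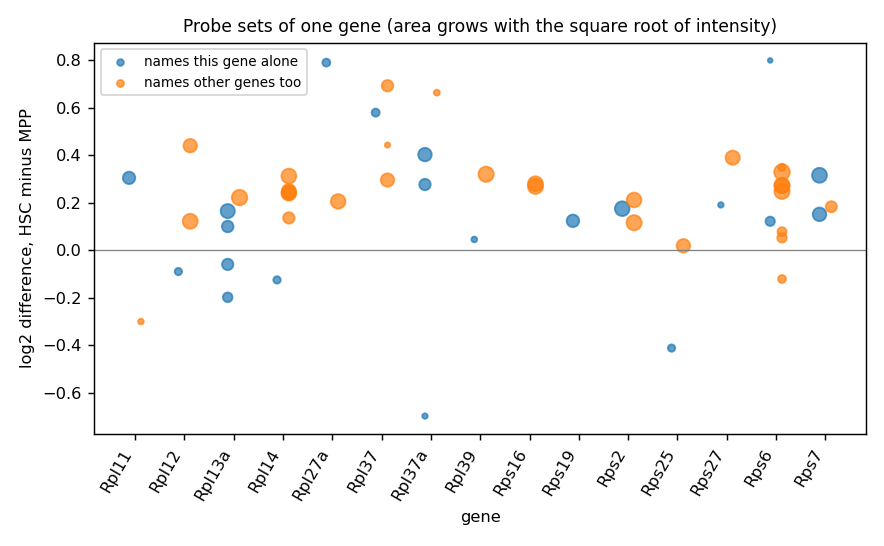
Log2 difference, HSC minus MPP, of probe sets that name only the ribosomal protein gene and of probe sets that name it beside other genes, for the tested probe sets of the 15 genes that have both kinds on the array; the area of a point grows with the square root of its intensity. For Rpl27a the values are 0.79 and 0.21, and for Rps25 -0.41 and 0.02.

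Probe sets of one gene did not always move together. Of 21 genes with several tested probe sets, 12 had all of them on one side of 0, 11 of these above it, and 9 had values on both sides. No gene had probe sets called in both directions. The widest spread was at Rpl37a, where 1416218_x_at, at 48.9 to 95.0 units, differed by -0.70 and the brightest probe set, at 5579 to 8959 units, by 0.40. Rps6, the main substrate of the S6 kinases, had 0.12 at its brighter probe set and 0.80 at one of 8.30 to 34.2 units. Rps24 ranged from -0.32 at a probe set of 14.5 to 43.8 units to 0.35.

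Of 22 genes in a list of Diamond-Blackfan genes, 13 had a probe set of their own. All 13 were tested by their representative probe set and none was called in limma, beside 13.6% of all genes. Their median was 0.20, and 2 other probe sets of Rps10 were called, as given above. The smallest p-values were those of Rps10, given above, and Rps7, which differed by 0.32 (adjusted p = 0.249).

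Genes that share the TOP motif without encoding ribosomal proteins had a median of 0.12. Of 22 tested, 1 was higher, the helicase Eif4a2 at 0.65 (limma adjusted p = 0.0387), and 0 lower, beside 7.71% and 5.9% of all genes. Eif4a2 passed the test under 8 of 15 alternatives, with adjusted p from 0.00431 to 0.336. It failed the test when HSC replicate 1 or either MPP array was left out. Fau, which encodes a ubiquitin-like protein fused to a small subunit protein, differed by 0.44 (adjusted p = 0.0871).

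Some genes that carry ribosomal proteins to the nucleolus or into the ribosome were lower in HSC. Of 15 tested in the list of chaperones and importers, 0 passed as higher and 4 as lower, beside 5.9% of all genes lower. The median was -0.45, with 13 below 0 and 2 above, Tsr2 at 0.10 and Heatr3 at 0.01. Ipo7, an import receptor for ribosomal proteins, read 414 and 338 units in HSC and 721 and 796 units in MPP, a difference of -1.01 (limma adjusted p = 0.00520). The importer Ipo5 differed by -0.63 (adjusted p = 0.0274). Rpf2, which helps place the 5S particle, differed by -0.68 (adjusted p = 0.0498).

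Nacc1, the remaining called gene, is a BTB-domain nuclear protein that was placed in this list in error, so without it 3 of 14 were lower, with a median of -0.44. It differed by -1.65 (limma adjusted p = 0.0120). Ipo7 passed under 13 of 15 alternatives and Ipo5 under 10 of 15, whereas Rpf2 passed under 5 of 14. Without MPP replicate 2 none of the 3 passed. Of 6 genes tested among TOP regulators and p53 surveillance, none was called, beside 13.6% of all genes. The smallest p was that of Larp1, which binds TOP messages, at -0.53 (adjusted p = 0.0748).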

How the data were processed

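The values used were probe set intensity values that the authors deposited for 4 arrays, on a linear scale. The sources used here do not say which software made them. As the deposited values show, the mean without the lowest and highest 2% was 100.0 on every array. Controls were left out, and symbols of the platform annotation were checked against RefSeq (GRCm38.p6): all 105 member probe sets matched. The log2 scale used here added 6.01 units to each value, which is 0.25 times the overall median. Array medians lay within 0.27 of each other, so no normalization was added. The dimmest 40% of probe sets by mean were dropped. HSC and MPP were compared in limma 3.58.1 (R 4.3.3; lmFit, eBayes with trend, 2-sided, no covariates, 2 residual degrees of freedom), with Benjamini-Hochberg adjustment at 0.05 over 27022 probe sets. For each gene the tested probe set with the highest mean stood for it.

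The named genes are the 5 with the largest difference each way, the 5 brightest, those failing the filter, the 3 with the widest spread among probe sets, all members of the 5S, stalk, paralog and parent lists, and from other lists those called or with the smallest p. Joint probe sets named beside them were chosen after their values were seen. The members and lists were chosen with earlier results of these data known. The fit was tested on simulated arrays under 2 assumptions on noise, the SD moderated by limma and each probe set's own SD. The smallest change simulated was 1.5-fold, larger than most of those of the members. It was recovered at 1 of 50 probe sets with the moderated SD and at 0 of 50 with the own SD. For 8-fold changes the recovery was 46 of 50 and 15 of 50. The changed probe sets were few, 50 of each size among 27022, and were drawn from all tested levels. In the data 10.6% of probe sets were called, so the adjusted threshold was less strict there. The recovery is therefore not that of the members, which are mostly bright. A member that was not called is still not shown to be equal. A first version of the simulation, with the own SD, recovered none. A second used the moderated SD and larger changes, and the version given here holds both SDs and adds smaller changes. The number of arrays limits the precision. Alternatives covered the pseudocount, the filter, scaling, prior trend, probe set choice, gene means, a replicate block and each array left out. The 2 further ones, centring on ribosomal protein genes and adding joint probe sets, were chosen after seeing the data.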

Additional observations from a re-analysis of the deposited data

How the results depend on the processing

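As reported, 3 member probe sets were higher and 0 lower, 1 gene was higher and 0 lower, and the member median was 0.19. Of 474 values of named genes under the alternatives, 380 kept direction and call, 32 gained a call, 17 lost one and 45 changed sign; the cause of these changes was not tested. Quantile normalization gave 9 probe sets and 2 genes higher and a median of 0.0019; Rpl22 (-0.11), Rpl39 (-0.081), Rplp0 (-0.032), Rps18 (-0.0027), Rps29 (-0.0035), Rps3a1 (-0.041), Rps4x (-0.026) and Rpsa (-0.071) changed sign. Equal array medians gave 0 probe sets higher and 4 lower, 0 genes higher and 2 lower and a median of -0.041; Rpl22 (-0.13), Rpl22l1 (-0.21), Rpl39 (-0.19), Rpl7l1 (-0.23), Rplp0 (-0.041), Rps24 (-0.11), Rps27 (-0.042), Rps3a1 (-0.014), Rps6 (-0.11) and Rpsa (-0.044) changed sign. Cyclic loess gave 31 probe sets and 18 genes higher; Rpl39 (-0.073) and Rpl8 (0.0008) changed sign. Centring on ribosomal protein genes gave 0 probe sets higher and 1 lower, 0 genes higher and 1 lower and a median of -0.0024; Rpl22 (-0.091), Rpl22l1 (-0.17), Rpl39 (-0.15), Rpl7l1 (-0.19), Rplp0 (-0.0024), Rps24 (-0.068), Rps27 (-0.0030), Rps6 (-0.072) and Rpsa (-0.0054) changed sign. Of all genes, 9.97% were called under that centring. Of all probe sets, 9.46% were called after quantile normalization, 12.6% with equal array medians, 10.3% after cyclic loess and 7.76% with centring. Gene means gave 2 genes higher (14.2% of all genes called), with Rpl37a at -0.0055 and Rpl7l1 at -0.056. Without a filter 1 probe set was higher (3.77% of all probe sets called). Once probe sets with the suffix _x_at, _s_at or _a_at were dropped, 1 was likewise higher (9.66% called). The member median was then 0.16 over 23 genes, beside 0.11 over all genes. Without a trend 0 probe sets and 0 genes were higher in limma (3.73% of all probe sets and 4.94% of all genes called). Joint probe sets added left 0 of 73 genes higher by their representative.

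Leaving out 1 array in turn gave 0 to 35 probe sets higher and 0 to 2 lower, 0 to 21 genes higher and 0 to 1 lower, and medians from 0.08 to 0.34. Ranges that crossed 0 were those of Rpl12 (-0.24 to 0.060), Rpl22 (-0.065 to 0.27), Rpl22l1 (-0.18 to 0.22), Rpl39 (-0.050 to 0.14), Rpl7l1 (-0.11 to 0.13), Rpl8 (-0.25 to 0.025), Rps24 (-0.019 to 0.27) and Rps27 (-0.19 to 0.57). With the replicate number as a block, 5 probe sets and 3 genes were higher. Over all features this block called 16.1% of probe sets and 19.6% of genes (9.34% and 11.4% higher). Without the block 10.6% and 13.6% were called. The deviations of same-numbered samples correlated at 0.027. Their labels share only a number, and whether same-numbered samples belong together was not tested. With 2 arrays a group, differences of the usual size of the members could not be resolved.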
